A study of Mus musculus with 38 samples.

Results

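The spleens of male Balb/C mice (labelled BalbxJ) were compared 3.5 hr after a single in vivo exposure to 10 rad (10 cGy) of X-rays with those of sham-exposed males of the same strain. All 8 arrays that carry this strain label were used, of 38 arrays from 6 inbred strains. The mice were 10 to 14 weeks old according to the labels, while the study's methods give a younger range, and irradiated and sham mice differed in the exposure alone, with no transgene or other agent in either group. Each two-colour array held cDNA from 1 irradiated and 1 sham mouse that had been paired at random, and by design 4 such pairs were each hybridized 2 times with the dyes exchanged. The irradiated RNA was in Cy5 on 4 arrays (numbered 3, 5, 35 and 36 in the labels) and in Cy3 on the other 4 (numbered 2, 4, 6 and 84). The labels do not show which arrays shared a mouse pair, so arrays were the units of the tests given here and their p-values take no account of a pair that 2 arrays shared. Tests on pair means under each of the 24 possible pairings are given at the end.

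The deposited number for each spot is a signed score whose scale, log base and dye direction are not given. It is therefore reported as a score and not as a fold change. The median of each array was subtracted and the sign was turned on the arrays with irradiated RNA in Cy3. A positive value then stands for more transcript in the irradiated mouse if the score runs from Cy5 over Cy3, and for less if it runs the other way. The words positive side and negative side are used for this reason. The response of a probe is the equal-weight mean of the Cy5 and Cy3 orientations. Of 21618 distinct probes, 18899 had values on at least 2 arrays of each orientation and were tested, and 5710 of these carried 1 gene symbol through a RefSeq accession.

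The spleen filters blood and holds B cells, T cells, macrophages, granulocytes and, in mice, red cell precursors. Lymphocytes are among the most radiosensitive cells of the body. Ionizing radiation breaks DNA, which activates ATM and p53, and p53 in turn drives genes of cell cycle arrest, repair and apoptosis. Damaged cells can also release signals that induce interferons. Interferons act through receptors, JAK kinases and STAT and IRF transcription factors on an interferon-stimulated response element in the promoters of their target genes, and many of the targets encode antiviral proteins.

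Promoter sequences of interferon-regulated genes are shown because this list had the most one-sided positive values described below. The core of the response element was searched as GAAANNGAAA on either strand (TTTCNNTTTC when read from the other strand), with overlapping matches allowed, in RefSeq windows from 250 bases before to 50 bases after each start (assembly GRCm38.p6). The motif was found in 3.44% of 32851 windows. Of the 28 tested genes of the interferon list, 24 had a window and 11 of these (45.8%) held a match. Of all 4495 tested genes with a window, 4.52% held a match. The list was chosen for its link to interferon, so its share describes the list and not the response to irradiation. The stretches below belong to the members on the positive side at an unadjusted p under 0.05 that had a match before the start. They are written 5′ to 3′ on the strand of the gene, and capitals mark the bases covered by matches.
Isg15, chr4:156200845-156200926, minus strand, 3 overlapping matches that end 57 bases before the start: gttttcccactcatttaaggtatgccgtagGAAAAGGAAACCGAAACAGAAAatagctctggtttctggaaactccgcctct
Ifitm2, chr7:140955968-140956037, minus strand, 1 match that ends 37 bases before the start: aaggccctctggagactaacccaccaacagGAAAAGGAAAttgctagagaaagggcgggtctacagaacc
Ifit3, chr19:34583343-34583446, plus strand, 2 matches on the opposite strand that end 113 bases before the start: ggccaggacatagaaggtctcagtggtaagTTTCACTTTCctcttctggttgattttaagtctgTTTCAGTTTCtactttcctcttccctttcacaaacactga
The window of Irf7 held no match to these letters. The 11 genes with a match had a median response of 0.683 and the 13 without one 0.190. This difference was not tested.

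The Balb/C arrays fell into 2 ranges of spread. Between 14389 and 19521 probes had a value on an array, and the array medians as deposited lay between -1.76 and 2.48. The SD of the centred values was 0.627 to 0.992 on arrays 2 to 6 and 1.44 to 2.07 on arrays 35, 36 and 84, and array 36 had the widest middle range (interquartile range 3.40, against 0.598 on array 2). Before turning, arrays of opposite orientation correlated at r = 0.128 to 0.741 across probes and arrays of the same orientation at 0.302 to 0.693. These correlations are across probes, which are not independent replicates, and all of them were positive. The mean of the 2 orientations before turning, called the dye bias here, had an SD of 0.881 over probes against 0.448 for the response, and 969 probes (5.13%) passed limma's test of the dye bias at a Benjamini-Hochberg adjusted p under 0.05.

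**Figure D1:**
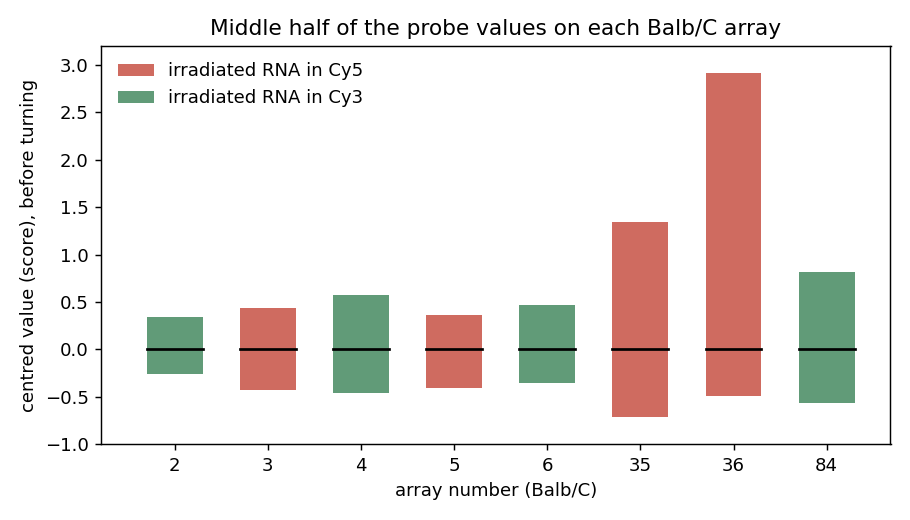
Each bar spans the 25th to the 75th percentile of the centred probe values (score, before turning) on 1 of the 8 Balb/C arrays, with a black line at the median of 0 and the colour giving the dye of the irradiated RNA. The bars of arrays 35, 36 and 84 are longer than those of arrays 2 to 6, and that of array 36 reaches 2.91.

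No gene passed the test of irradiated against sham mice over all 8 arrays. With limma and Benjamini-Hochberg adjustment, 0 of 18899 probes were called (0%) and the lowest adjusted p was 0.560. At an unadjusted p under 0.05 there were 1674 probes (8.86%), 774 on the positive side (4.1%) and 900 on the negative side (4.76%). The median response over all tested probes was 0.0531, with 56% of the responses positive, and the median standard error was 0.250. The means of the Cy5 and Cy3 orientations lay on opposite sides of 0 for 68.6% of the tested probes, on the positive side together for 13.6% and on the negative side together for 17.8%. In simulated data the test recovered 31 of 66 effects of size 2 on the scale of the score. It recovered 6 of 67 of size 1 and 0 of 67 of size 0.5. The simulation gave each probe its residual spread, equal on all 8 arrays and independent between arrays. The real arrays differed in spread and by design shared mouse pairs, so these rates are a rough guide. Differences of the size of most responses were seldom or not recovered at these settings.

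Genes whose values kept one sign on every array included Icam2, Arf2 and Cope on the positive side and Cd14, Bid and Vldlr on the negative side. Of the 8282 probes measured on all 8 arrays, 110 (1.33%) had one sign throughout, 51 positive (0.616%) and 59 negative (0.712%). Of these, 16 positive and 17 negative probes had a symbol, and those described here are among the 10 on each side with the smallest p. None passed the adjusted threshold.

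Icam2, an adhesion molecule of endothelium and lymphocytes, had a response of 1.12 (SE 0.236, n = 8 arrays). Its values were 0.950, 0.592, 2.01 and 2.58 with the irradiated RNA in Cy5 and 0.442, 1.18, 0.588 and 0.617 with it in Cy3. The highest values came from arrays 35 and 36, and on arrays 2 to 6 alone the response was 0.754. Arf2, a small GTPase of vesicle traffic at the Golgi, was at 0.858 (SE 0.185), and Cope, a subunit of the coatomer that coats Golgi vesicles, at 0.668 (SE 0.207). Ptgs1, the constitutive cyclooxygenase, was at 0.695 (SE 0.195), Slc26a3, an anion exchanger, at 0.655 (SE 0.176), and Chga, a protein of neuroendocrine granules, at 0.682 (SE 0.202). Zbp1, an interferon-inducible sensor of nucleic acids that was not on the interferon list, was at 0.521 (SE 0.162). Proc, the precursor of the anticoagulant protein C, was at 0.869 (SE 0.282) and Dnajc19, a cochaperone of mitochondrial import, at 1.04 (SE 0.330). For these last 2 genes the values on arrays 35 and 36 were set apart, between 1.75 and 3.00, from the other 6 values, which did not pass 0.751.

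On the negative side Cd14, the co-receptor for lipopolysaccharide on macrophages and monocytes, had a response of -0.801 (SE 0.212, n = 8 arrays). Its values were -0.399, -1.44, -0.0215 and -0.470 with irradiated RNA in Cy5 and -0.996, -0.422, -1.82 and -0.837 in Cy3, so that both orientations reached below -1. Bid, a BH3-only protein that links death receptors to mitochondria, had a response of -0.493 (SE 0.137), and 7 of its 8 values lay between -0.299 and -0.652. The eighth was -1.09, on array 5. Fmnl1, a formin of blood cells, was at -0.855 (SE 0.212), Vldlr, a lipoprotein receptor, at -0.702 (SE 0.183), Npdc1 at -0.702 (SE 0.246) and Tpd52l1 at -0.521 (SE 0.160). Abcb11, the bile salt export pump, was at -0.455 (SE 0.154), Xab2, a factor of splicing and transcription-coupled repair, at -0.508 (SE 0.185), and Cxadr, a junction protein that serves as a virus receptor, at -0.380 (SE 0.139). Serpina1a, which encodes an alpha-1 antitrypsin, was at -0.568 (SE 0.203). Serpina1d, a closely related copy singled out after its values were seen, had one sign on the opposite side at 0.343 (SE 0.139). Probes of such copies can share hybridization, and the probe sequences were not used here.

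**Figure D2:**
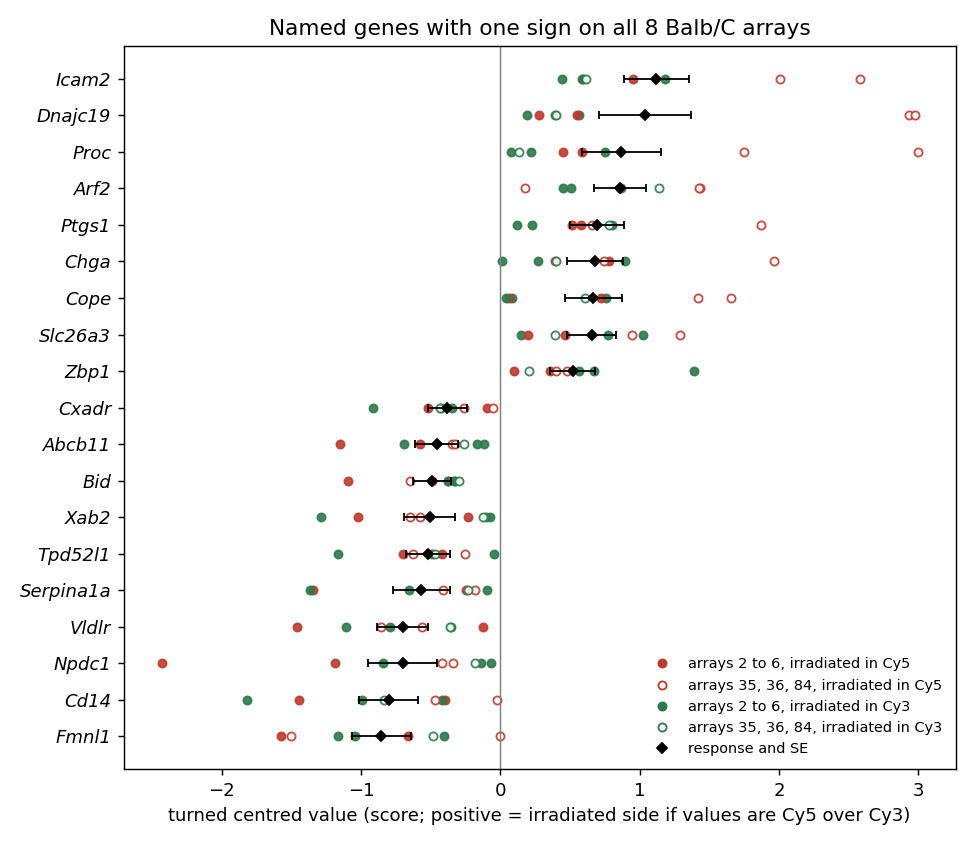
Turned centred values (score, x axis) of the genes described here with one sign on all 8 Balb/C arrays (rows); points are single arrays, filled for arrays 2 to 6 and open for arrays 35, 36 and 84, coloured by the dye of the irradiated RNA, and diamonds with bars are the response and its SE. The open red points of arrays 35 and 36 lie farthest out for Icam2, Dnajc19 and Proc, while 7 of the 8 values of Bid stay between -0.299 and -0.652.

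Interferon-regulated genes lay mostly on the positive side. Of 28 tested members 25 had a positive response, beside 56% of all tested probes, with a list median of 0.351 against 0.0531 over all probes. No member passed the adjusted threshold over 8 arrays. At an unadjusted p under 0.05 there were 6 members on the positive side (background 4.1%) and 1 on the negative side (background 4.76%). Both orientation means were positive for 12 of the 28 and both negative for 2, and for 14 they lay on opposite sides. The list was chosen with earlier results of these data known, and its count is a description.

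Irf7, the master regulator of type I interferon genes, had a response of 1.33 (SE 0.304) over 6 arrays. Its values were 2.29, 2.07 and 2.93 in the Cy5 orientation and 0.538, 1.13 and -0.953 in Cy3, so the single negative value was that of array 84. Isg15, a ubiquitin-like modifier that interferon induces, had a response of 0.935 (SE 0.292) over 7 arrays. Its values were 1.03, 0.836, -0.653 and -0.432 in Cy5 and 0.757, 2.12 and 2.15 in Cy3. All 5 values on arrays 2 to 6 were positive and both values on arrays 35 and 36 were negative.

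Gbp4, a guanylate-binding GTPase, had a response of 1.06 (SE 0.344) but means of 2.37 in the Cy5 and -0.260 in the Cy3 orientation. Ifitm2, a membrane protein that blocks virus entry, had 4 positive values in Cy5 (1.51, 2.06, 3.34 and 5.27) and 4 negative values in Cy3 (-0.947, -0.939, -0.930 and -1.62), so the sign of its turned values followed the dye on every array. Its dye bias of 2.08 was larger than its response of 0.969. Eif2ak2, the kinase PKR that is activated by double-stranded RNA, had a response of 1.40 (SE 0.586) with means of 4.33 and -1.53 in the same order. Ifit3, an antiviral tetratricopeptide protein, had a response of 0.850 (SE 0.360) with a mean of 1.70 in Cy5 and of 0.000800 in Cy3.

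Members of antigen processing did not share one side. Psmb9, an immunoproteasome subunit, was the member on the negative side, at -0.771 (SE 0.286), with 1 positive value on 7 arrays. Psmb8 and Psmb10, the other subunits of the immunoproteasome, had responses of 0.190 (SE 0.418) and 0.309 (SE 0.182), and the peptide transporters Tap1 and Tap2 had 0.288 (SE 0.173) and 0.589 (SE 0.389). These 4 were named after their values were seen, as were the remaining interferon regulatory factors. Irf9, the DNA-binding part of the interferon-stimulated complex, was at 0.308 (SE 0.213), Irf1 at 0.176 (SE 0.270), Irf3 at -0.272 (SE 0.268) and Irf8 at 1.12 with an SE of 1.23 that came from a value of 10.1 on array 35.

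By array, the median of the interferon list was 0.579, 0.431, 0.790 and 0.484 with the irradiated RNA in Cy5 and 0.192, 0.0469, 0.191 and -0.228 with it in Cy3. It was above 0 on 7 of 8 arrays and higher on each Cy5 array than on any Cy3 array. Pancreas markers moved the other way on the same arrays, with medians of -1.83, -1.43, -0.640 and -0.114 in Cy5 and -0.372, -1.21, -1.30 and 0.202 in Cy3, and their part in the interferon values was not tested. Without array 84 the excess of the interferon median over that of all probes was 0.473, and without array 36 it was 0.258.

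**Figure D3:**
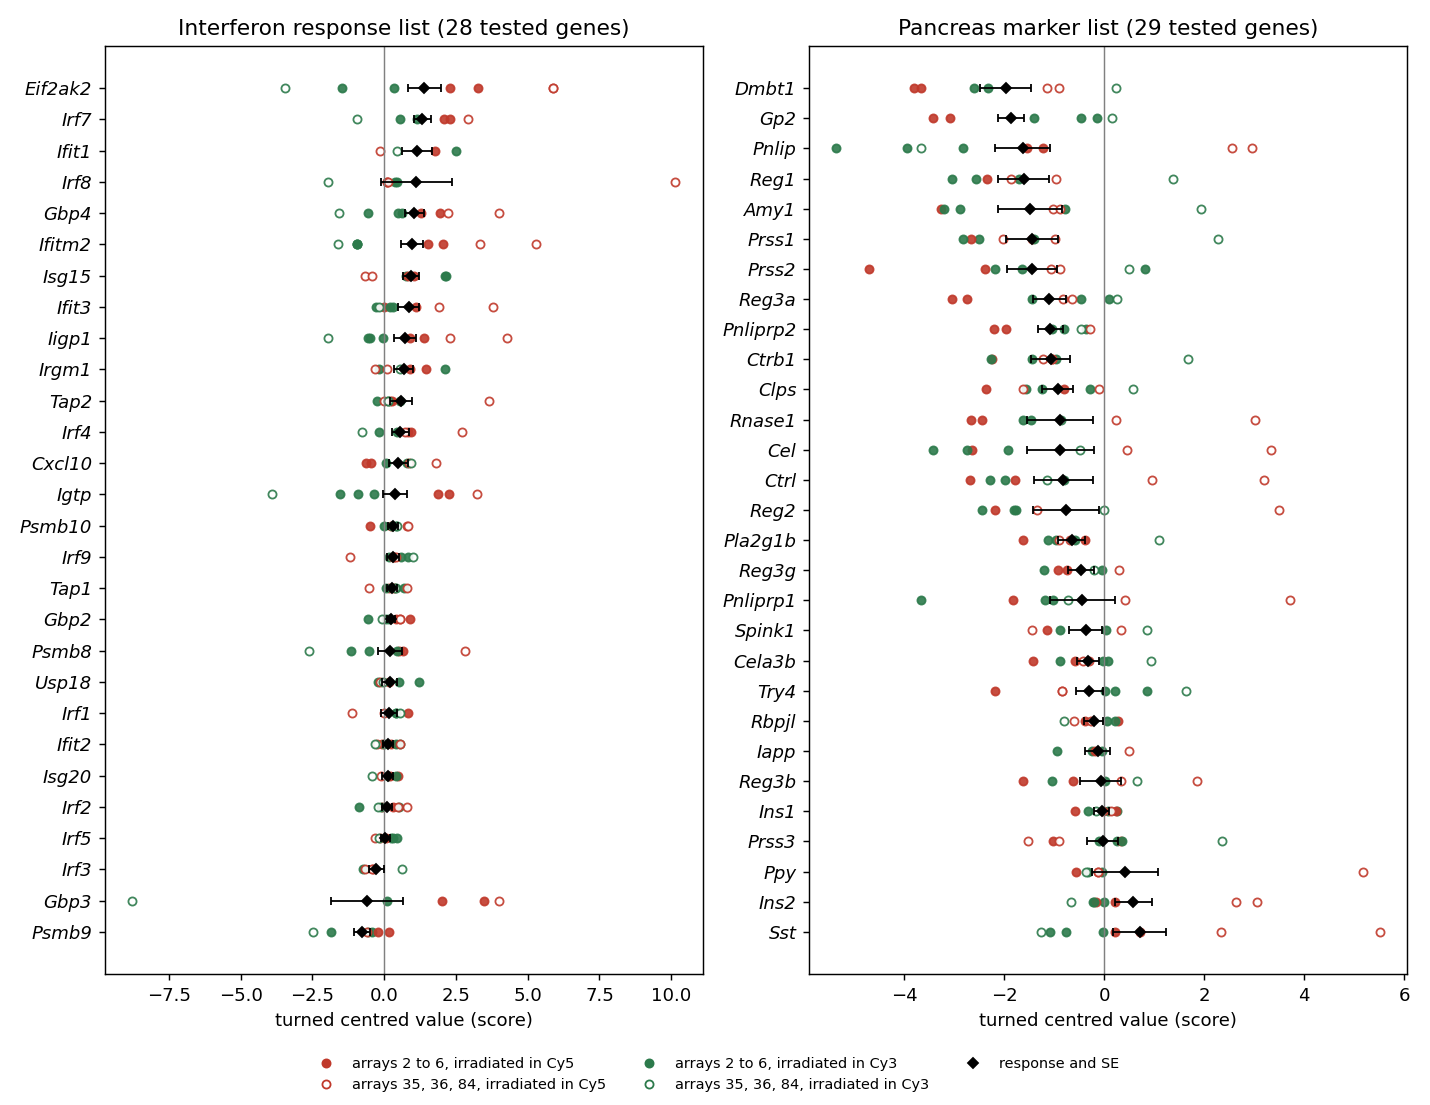
Turned centred values (score, x axis) of the 28 tested interferon genes (left) and the 29 tested pancreas markers (right) on each Balb/C array, with diamonds and bars for the response and its SE and with points coloured by the dye of the irradiated RNA, filled for arrays 2 to 6 and open for arrays 35, 36 and 84. For Ifitm2 the red points lie to the right of 0 and the green points to the left, and for most pancreatic enzymes the filled points lie to the left of 0.

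Genes of the exocrine pancreas, an organ that lies against the spleen, lay mostly on the negative side, with the lowest median response of the 23 lists. Of 29 tested pancreas markers 26 had a negative response, beside 44% of all tested probes, and the list median was -0.760. At an unadjusted p under 0.05 there were 11 on the negative side (background 4.76%) and 0 on the positive side, and no member passed the adjusted threshold over 8 arrays at equal weight. With array weights, Gp2 (-1.998), Dmbt1 (-2.76) and Pnliprp2 (-1.31) passed (adjusted p = 0.0310 for each by limma with Benjamini-Hochberg adjustment). These genes had values on 6, 7 and 7 of the 8 arrays. The weights were estimated from these same data. Arrays 35, 36 and 84 were weighted 0.205 to 0.659 and arrays 2 to 6 were weighted 1.40 to 2.68. Both orientation means were negative for 19 of the 29 and both positive for 0. In RNA of a whole organ, a difference in cell number and one in RNA per cell cannot be told apart.

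Gp2, a membrane glycoprotein of zymogen granules, had a response of -1.86 (SE 0.262) over 6 arrays, with values of -3.08 and -3.43 in the Cy5 orientation and -0.461, -0.146, -1.41 and 0.160 in Cy3. Dmbt1, a secreted mucin-like glycoprotein, had -3.80, -3.67, -0.910 and -1.15 in Cy5 and -2.33, -2.61 and 0.243 in Cy3, a response of -1.97 (SE 0.502). Pnliprp2, a pancreatic lipase, was negative on all 7 arrays that measured it, between -0.283 and -2.20, with a response of -1.08 (SE 0.257). The values of Dmbt1 below -2 were those of arrays 3 to 6, and for Gp2 and Pnliprp2 the lowest values were those of arrays 3 and 5.

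The enzymes named next were picked after their values were seen. The trypsinogens Prss1 and Prss2 were at -1.45 (SE 0.522) and -1.44 (SE 0.495), the chymotrypsinogen Ctrb1 at -1.07 (SE 0.393), the amylase Amy1 at -1.48 (SE 0.638), colipase (Clps) at -0.928 (SE 0.311), and the lectins Reg1 and Reg3a at -1.61 (SE 0.511) and -1.10 (SE 0.329). Hormones of the islets were on neither side as a group. The insulin genes Ins1 and Ins2 had -0.0503 (SE 0.151) and 0.585 (SE 0.367), somatostatin (Sst) 0.708 (SE 0.523) and amylin (Iapp) -0.128 (SE 0.247). Trypsinogens, insulins and the Reg lectins are families of similar copies, whose probes may share hybridization.

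The pancreas values differed between arrays 2 to 6 and the other 3 arrays. On arrays 2 to 6 alone its median response was -1.41, with 1 of 29 members positive, and on arrays 35, 36 and 84 it was 0.287, with 18 of 27 members positive. The excess over the median of all probes was -0.813 with 8 arrays. It was -0.460 without array 3 and -1.14 without array 36. The interferon median was 0.330 on arrays 2 to 6 (23 of 26 members positive) and 0.250 on arrays 35, 36 and 84 (19 of 27 positive), beside 0.0116 and 0.114 over all probes.

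**Figure D4:**
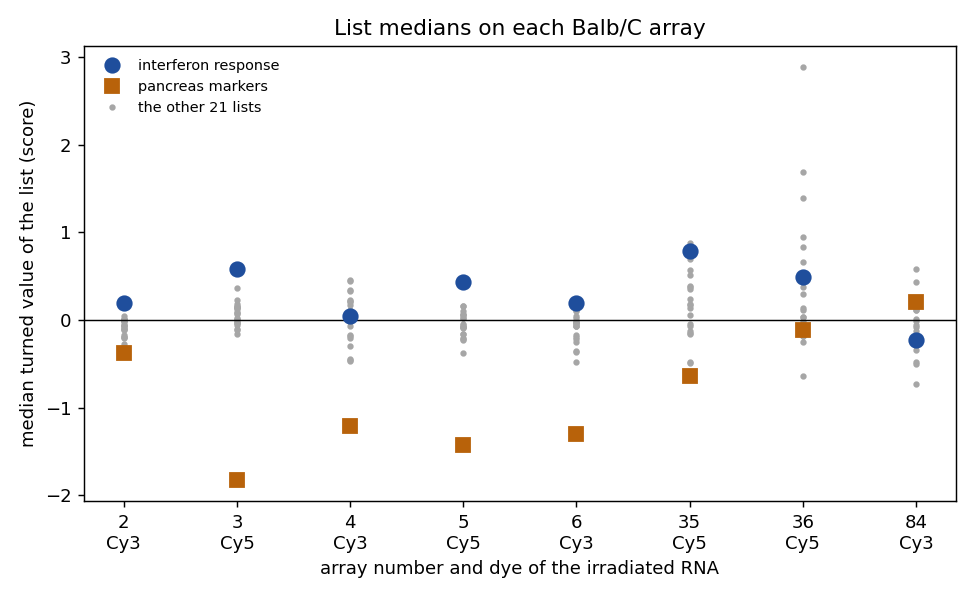
Median turned value (score, y axis) of each of 23 gene lists on the 8 Balb/C arrays (x axis, with the dye of the irradiated RNA), with interferon genes in blue, pancreas markers in orange and the other lists in grey. The pancreas markers lie lowest of the lists on arrays 2 to 6, between -0.372 and -1.83, and the grey points spread up to 2.89 on array 36.

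Restricted to arrays 2 to 6, which were set apart after their narrower spread was seen, and with at least 1 array of each orientation and 3 arrays in all required of a probe, 298 of 18086 probes were called by limma at a Benjamini-Hochberg adjusted p under 0.05 (1.65%). Of these, 284 were on the negative side (1.57%) and 14 on the positive side (0.0774%). One sign on every measured array of the 5 was held by 205 of the 284 and by 10 of the 14. In the same subset 3179 probes (17.6%) had an unadjusted p under 0.05. The p-values here take no account of shared mouse pairs or of how the 5 arrays were chosen. Pairings were not tested in this subset.

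Of the calls with a symbol, 75 were negative and 6 positive. The pancreas list gave 13 of the negative calls, 12 of them of one sign, led by Dmbt1 at -3.10 (adjusted p = 0.00788 by limma with Benjamini-Hochberg adjustment) and Gp2 at -1.96 (adjusted p = 0.0103). The 6 positive calls were Irf7, Ly6c1, Sp100, Lgals3bp, Slfn3 and Isg15. Irf7 was at 1.51 (adjusted p = 0.0232) and Isg15 at 1.30 (adjusted p = 0.0410). Ly6c1, a surface antigen of monocytes and endothelium, was at 1.33 (adjusted p = 0.0307), with positive values on 6 of the 7 arrays of the whole set. Sp100, a protein of nuclear bodies, was at 1.07 on arrays 2 to 6. Sp100, Lgals3bp and Slfn3 were named because the count is small. The negative calls in the other lists were Ier2, Fcer2a, Gzma, Cpa3 and Cox7a2l, of which Gzma, the granzyme A of cytotoxic lymphocytes, rested on 1 value of -4.84 on array 3 beside 0.0546 and 0.817 on arrays 2 and 6. Ier2, Cpa3 and Cox7a2l, like Reg1, Reg2, Cel and Amy1 of the pancreas list, also had a single Cy5 value in this subset, that of array 3. None of these calls passed with all 8 arrays at equal weight. When the 8 arrays were instead weighted by their agreement with the fit, 47 probes passed, among them Gp2, Dmbt1 and Pnliprp2.

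No gene of the p53 response, of repair or of apoptosis passed the adjusted threshold. Of 18 tested p53 targets 11 were positive, with a median of 0.00860, and at an unadjusted p under 0.05 there were 2 on the positive and 1 on the negative side (background 4.1% and 4.76%). Fas, a death receptor, was measured on 4 arrays and had 5.11 and 3.43 on arrays 35 and 36 against 0.161 and -1.46 on arrays 2 and 6. Phlda3, an inhibitor of AKT signalling, was at -0.726 (SE 0.259). Dkk1, a WNT inhibitor, was at 1.09 (SE 0.453), which became 0.716 without array 36, and had means of 2.70 in Cy5 and -0.522 in Cy3. For 14 of the 18 p53 targets the orientation means lay on opposite sides, beside 68.6% of all probes. The DNA damage and repair list had 25 of 35 members positive (all probes 56%) and a median of 0.207, with 2 positive members at an unadjusted p under 0.05 (background 4.1%). The orientation means lay on opposite sides for 29 of the 35, beside 68.6% of all probes. The list also held the helicase Blm at 0.542 (SE 0.216), which had positive means in both orientations and was at 0.334 without array 35. The uracil glycosylase Ung was at -0.684 (SE 0.308), and at -0.328 without array 5. Apoptosis genes were split, 19 of 37 positive with a median of 0.0381, and Htra2, a mitochondrial protease, was on the negative side at -0.800 (SE 0.251) beside Bid.

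Immediate early genes, which respond to stimuli within the hour, had 14 of 24 members positive and a median of 0.0648. Ier2 lay on the negative side, with a response of -1.34 (SE 0.261) and all 6 measured values negative, between -0.309 and -1.84. Atf3, a stress-induced transcription factor, had positive values on its 3 Cy5 arrays and negative values on its 4 Cy3 arrays, which gave a response of 0.631 (SE 0.305). Cell cycle genes had 22 of 47 members positive and a median of -0.0415. D-type cyclins lay on opposite sides, Ccnd2 at 0.549 (SE 0.194, positive on 7 of 8 arrays) and Ccnd3 at -0.784 (SE 0.250, positive on 1 of 8).

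Heat shock genes had 22 of 31 members positive (median 0.145), among them Pdia4, a disulfide isomerase, at 0.811 (SE 0.244) over 4 arrays. The cytosolic chaperones Hsp90ab1 and Hspa4 were at -1.02 (SE 0.290) and -0.502 (SE 0.202). Subunits of the mitochondrial respiratory chain were evenly split (20 of 42 positive, median -0.0151), with 6 negative and 0 positive members at an unadjusted p under 0.05 (background 4.76% and 4.1%). They were led by Cox7a2l at -1.71 (SE 0.411), Sdhc, a subunit of succinate dehydrogenase, at -0.794 (SE 0.206) and Cox6b1 at -1.02 (SE 0.272). Ribosomal proteins had 36 of 58 members positive with a median of 0.201, which was 0.00464 on arrays 2 to 6. Antioxidant genes had 19 of 36 members positive (median 0.00638) and cytokines and chemokines 30 of 52 (0.0388). TGF-beta and matrix genes had 21 of 40 (0.0240), and glucocorticoid-responsive and circadian genes 8 of 14 (0.0569). In the same order these lists had 1, 2, 1 and 0 members at an unadjusted p under 0.05, beside 8.86% of all probes. A further 5 genes were taken from those that the study discusses, which chose them on these samples. Notch3, a receptor of cell fate signalling, was at 0.438 (SE 0.231), Smcp at 0.404 (SE 0.222), Top3a, a topoisomerase, at 0.207 (SE 0.259), Tgfbi at 0.670 (SE 0.551) and Ltbp2 at 0.492 (SE 0.488), and the last 2 turned to -0.476 and -0.275 on arrays 2 to 6. Without array 36 they were at 0.276 for Tgfbi, 0.0101 for Ltbp2, 0.0472 for Top3a, 0.247 for Notch3 and 0.246 for Smcp.

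Markers of the cells of the spleen gave medians near that of all probes. B cell markers had 15 of 21 members positive (median 0.108), T cell and NK markers 25 of 37 (0.141), macrophage and dendritic markers 13 of 24 (0.0312), granulocyte markers 20 of 29 (0.160), plasma cell markers 5 of 7 (0.176), erythroid and platelet markers 18 of 32 (0.0739) and stromal and vessel markers 11 of 23 (-0.0432). Within the macrophage list Lyz2, lysozyme M, lay at 0.897 (SE 0.256), positive on 7 of 8 arrays and opposite in side to Cd14. Itgax, the integrin CD11c, was at 0.781 (SE 0.277), with a mean of 1.64 in Cy5 and of -0.0757 in Cy3. Its highest values, 2.27 and 2.71, were on arrays 35 and 36, and 3 of its 8 values were negative. Fcer2a, the low-affinity IgE receptor of mature B cells, was at -0.770 (SE 0.338), and Cd24a, a surface antigen of immature B cells, at -0.848 (SE 0.346). Prf1, the perforin of cytotoxic lymphocytes, was at 1.04 (SE 0.357), and Klrb1c, an NK cell receptor, at -0.838 (SE 0.287) over 5 arrays. Prf1 had its highest values on arrays 35 and 36 (2.23 and 3.80), a mean of -0.170 in Cy3 and a response of 0.6501 without array 36, and Klrb1c was at -0.465 without array 6. Adipose markers had 3 of 8 members positive (median -0.0530), and Car3, a carbonic anhydrase of fat, was at -0.737 (SE 0.226). Markers of testis and brain, tissues that were not sampled, had 17 of 32 members positive with a median of 0.0335, and 5 of the 32 reached an unadjusted p under 0.05 (all probes 8.86%).

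A ratio holds no level, so the one sign that a marker was seen is whether its spots had a value after the removal of dim spots. That share was 92.0% for B cell markers, 89.3% for plasma cell markers and 86.5% for macrophage and dendritic markers. It was 85.2% for pancreas markers and 80.1% for markers of testis and brain, beside 80.5% over all 21618 probes. A value was also present for 1.04% to 10.4% of the 864 blank spots, with the highest shares on arrays 35, 36 and 84. The label of the tissue could not be checked further with these values.

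The response of Balb/C was set against the mean response of A/J, B6.C, C3H/HeJ, C57Bl6/J and DBA/2J in 1 fit over 38 arrays. Probes had values on 2 or more arrays of each orientation in Balb/C and on 1 or more in every other strain. A response in another strain can therefore rest on a single array of an orientation. Of 14367 probes, 3 (0.0209%) differed at an adjusted p under 0.05 by limma with Benjamini-Hochberg adjustment, and 707 (4.92%) had an unadjusted p under 0.05. The 3 were Ptk6, a tyrosine kinase, at -1.84 (SE 0.280), Msh4, a meiotic mismatch repair protein, at -1.69 (SE 0.284), and a probe without a symbol. In each the Balb/C response was close to 0 (-0.169 for Ptk6 and -0.206 for Msh4) while that of C3H/HeJ was 8.19 for Ptk6 and 7.08 for Msh4. With C3H/HeJ left out of the mean but its arrays kept in the fit, 0 probes were called by limma. In that contrast 384 probes had an unadjusted p under 0.05, and no difference from the other 4 strains was shown. Gng3, a G protein subunit, had the next smallest p at -2.04 (SE 0.386), again with a C3H/HeJ response of 5.51. Icam2 was at 1.12 in Balb/C, 0.971 in DBA/2J, 0.349 in C57Bl6/J, 0.179 in B6.C, -0.428 in A/J and -0.698 in C3H/HeJ, a difference of 1.05 (SE 0.277, adjusted p = 0.489 by limma). Ces1g, a carboxylesterase, differed by -1.39 (SE 0.303, adjusted p = 0.324 by limma).

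The interferon list had a median of 0.308 in Balb/C over the 19 members in this fit, against 0.139 in B6.C, 0.0932 in DBA/2J, 0.0687 in C57Bl6/J, 0.0474 in A/J and -0.262 in C3H/HeJ. The difference from the other strains was positive for 16 of the 19, beside 58.6% of all probes, and Isg15 (1.04) and Gbp4 (1.03) had an unadjusted p under 0.05 for it. The pancreas list had its lowest median in Balb/C (-0.850) and its next lowest in B6.C (-0.624). The difference from the other strains was negative for 16 of its 22 members, beside 41.4% of all probes, and of the 22 0 had an unadjusted p under 0.05 for the difference. No member of either list passed the adjusted threshold, and neither list is shown to be particular to Balb/C.

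**Figure D5:**
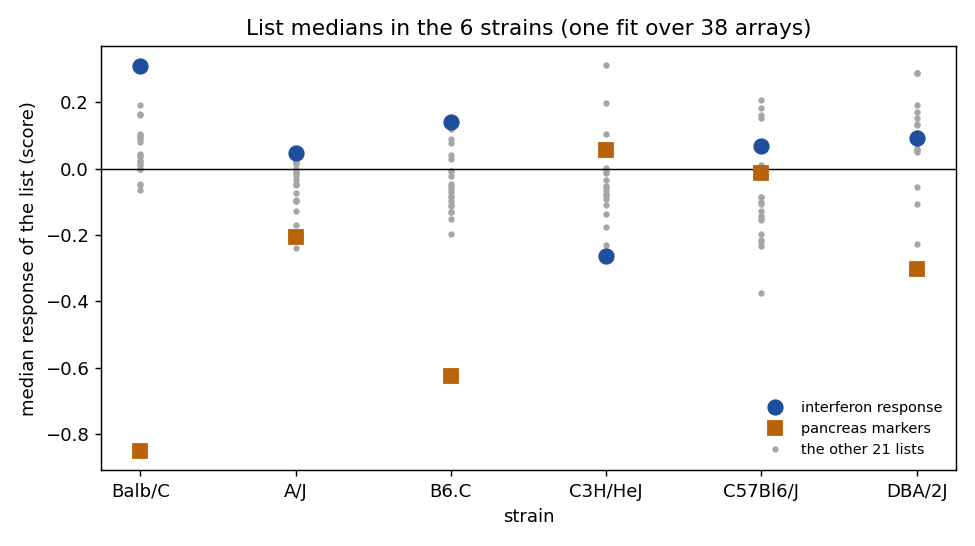
Median response (score, y axis) of the 23 gene lists in each of the 6 strains (x axis) from 1 fit over 38 arrays, with interferon genes in blue, pancreas markers in orange and the other lists in grey. Balb/C has the highest interferon median (0.308) and the lowest pancreas median (-0.850) of the 6 strains.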

How the data were processed

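The authors deposited 1 table with a signed score for each of 23232 spots and each array. Per the study's methods, local background was subtracted, dim and low-quality spots were discarded and Lowess was applied within arrays. Whether the deposited scores were made in this way is not given in the sources used here. The design foresaw a log2 ratio or a score, and the scores were used unchanged. Precision about mice is limited by the 4 mouse pairs behind the 8 arrays.

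Control spots (blank, buffer, Alien) were not used, spots of 1 probe were averaged, and 6518 of 21618 probes received 1 symbol through RefSeq (GRCm38.p6). Each array was centred on its probe median, and limma 3.58.1 in R 4.3.3 (lmFit, eBayes) fitted a dye term and a response term over the 8 Balb/C arrays, two-sided, with Benjamini-Hochberg adjusted p under 0.05. The fit over 38 arrays had both terms for each strain. A fit used only the arrays on which a probe had a value, and none was imputed. The code was tested on simulated data.

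The members and the 23 gene lists were chosen with earlier results of these data known. Named genes were up to 10 per side with one sign on all 8 arrays, up to 3 per list with the smallest p, every probe that passed the adjusted threshold, 5 with the smallest p against the other strains, and Ltbp2, Tgfbi, Smcp, Top3a and Notch3. Alternatives covered centring, scaling, filters, array weights, the dye term, pairings, shared spread and left-out arrays. Results of some genes are not reported here.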

Additional observations from a re-analysis of the deposited data

Results flagged for a closer look

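In 124 groups of 4 to 8 arrays, the highest or lowest array stood apart from the others by Dixon's criterion in 9, and chance gives about 1 in 20. In 5 of these the array was number 36, the one with the widest spread. Ptgs1 reached 1.87 on array 36 (next value 0.805) and Chga 1.97 on array 36 (next 0.893). Zbp1 reached 1.39 on array 4 (next 0.672), and Retn, an adipose hormone, 0.700 on array 35 (next -0.0220). The lowest value of Bid was -1.09 on array 5 (next -0.652) and that of Npdc1 -2.43 on array 3 (next -1.19). On array 36 the median of the apoptosis list was 1.68 (next 0.350), that of the granulocyte list 2.89 (next 0.782) and that of the stromal list 0.447 (next 0.0557).

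The response in Balb/C differed from the mean of the other 5 strains by limma for 3 probes, with differences of -2.11 for the probe AK015860, -1.84 for Ptk6 and -1.69 for Msh4. For AK015860 the responses were -0.0481 in Balb/C, 8.65 in C3H/HeJ and between 0.0750 and 0.963 in the other 4 strains.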

How the results depend on the processing

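The count of 0 calls over 8 arrays was also found in 8 of 8 fits with an array left out and in each of 24 possible pairings of the arrays. It became 47 (1 positive, 46 negative) with array weights, 298 (14 and 284) on arrays 2 to 6, a choice made after seeing the data, and 1 (negative) in the fit over 38 arrays. The count at an unadjusted p under 0.05 became 2966 after quantile normalization, 856 with values on all 8 arrays required, 1104 without the dye term, 3482 with array weights, 3179 on arrays 2 to 6, 402 in the lowest pairing and 775 to 2152 with an array left out, at the lowest without array 6 and 899 without array 4. Fewer probes were tested with all 8 arrays required (8282). As deposited, the median response over all probes shifted by -0.736, and values are given relative to this shift. The shift of a single probe differed from it, and for Icam2 the response as deposited was 0.435. Not taken relative to the shift, 20 of the 94 named genes changed side as deposited.

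Responses changed side for Prdm1 (0.0330) and Ctsg (-0.126) on arrays 2 to 6. Msh4 changed side after quantile normalization (0.00380), with weights (0.0109) and on arrays 2 to 6 (0.0957). Ltbp2 did so with weights (-0.158) and on arrays 2 to 6 (-0.275). Tgfbi did so after quantile normalization (-0.00647), with weights (-0.142) and on arrays 2 to 6 (-0.476). Scd1, with values on 4 arrays, was at 0.0388 as deposited relative to the shift of all probes. Not relative to that shift it was at -0.697, the same side as its response after centring (-0.506). The excess of the list median was -0.0684 for heat shock (8 members) and -0.269 for circadian genes (7 members) with all 8 arrays required. Interferon and pancreas medians kept their side relative to all probes in each alternative fit, between 0.212 and 0.473 and between -0.460 and -1.42, while arrays 35, 36 and 84 alone gave a pancreas median of 0.287. The cause of these changes was not tested.

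The 3 calls against the other strains became 0 as deposited, 0 after scaling and 0 with 2 or more arrays of each orientation in every strain. They became 0 with C3H/HeJ left out of the mean and 1 to 5 with an array left out (5 without array 5, 1 without array 6 or 35). At an unadjusted p under 0.05 the counts were 1624, 1158, 396 and 384 in the same order and 447 to 1086 with an array left out. The setting with 2 or more arrays tested 7748 probes against 14367. A call lost there can also be a probe that was not tested. The labels do not pair the arrays, so pair means were tested under all 24 possible pairings, over probes measured on all 8 arrays, with 402 to 1533 probes at an unadjusted p under 0.05. Centring within print blocks was not run because the rows follow accessions and not spots.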
